A study of Mus musculus with 6 samples.

Results

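The collagen and laminin genes were chosen by symbol alone, as every gene of the form Col, a number, a and a number, or Lama, Lamb or Lamc and a number from 1 to 5. This rule used no measured value and found 55 genes, 44 collagen and 11 laminin genes, of the 55376 genes in the tables. The data came from RNA immunoprecipitation sequencing (RIP-seq) of freshly isolated satellite cells (fiSCs), the stem cells of skeletal muscle, from C57BL/6 male mice aged 3 months that carried no transgene or treatment named in the labels. Hindlimb muscle was digested with collagenase, and cells positive for Vcam1 and negative for CD31, CD45 and Sca1 were sorted and lysed. The 6 libraries were 2 of input RNA, 2 of RNA that came down with a control IgG (IgG) and 2 of RNA that came down with an antibody to CPEB1 (CPEB1 IP).

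A satellite cell (SC) lies between the muscle fibre and its basement membrane, a sheet built on collagen IV and laminin. Collagens are made of chains wound into a triple helix, and a laminin joins an alpha, a beta and a gamma chain, so that most of these proteins need the products of several genes. SCs are known to make part of their own niche: collagen V made by SCs acts on their calcitonin receptor, collagen VI of the surrounding matrix is needed for their self-renewal, and collagen XV lies at the outer face of muscle basement membranes. Collagens I and III are the bulk products of fibroblasts. CPEB1 binds cytoplasmic polyadenylation elements (CPEs) in 3′ UTRs and controls the poly(A) tail and translation of the mRNA that holds them.

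Depth, as the sum of counts over genes, ranged from 1284716 in an IgG library to 4941653 in a CPEB1 IP library. The library total that the deposited FPKM rests on was larger, and the share of it on genes was 39.5% and 39.1% in IgG against 69.5% to 79.8% in the other 4 libraries. Values compared between libraries are therefore given as CPM, counts scaled to a common depth with TMM library sizes, which set the typical gene equal, and levels compared between genes as FPKM, which divides by gene length. Of the sort markers, Vcam1 had 4102 and 4711 counts in input, Ly6a (Sca1) 31 and 22, Pecam1 (CD31) 57 and 38, and Ptprc (CD45) 0 and 1. Cpeb1 mRNA itself had 119 and 131 counts in IgG and 473 and 1046 in CPEB1 IP, a log2 fold change of 1.09 ± 0.12 (SE).

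Fibrillar and niche collagens were the most abundant members in input. Col3a1, the chain of collagen III, was first with 140.8 ± 5.79 FPKM (SD, n = 2 here and for all such levels), and Col6a1, a chain of collagen VI, was second with 103.5 ± 4.73 FPKM. Then came the basement membrane genes Col4a1 (67.3 ± 1.93 FPKM), Lamc1 (32.0 ± 5.30 FPKM), Lamb2 (29.3 ± 5.21 FPKM) and Col4a2 (27.8 ± 1.97 FPKM). Lamc1, Lamb2 and Col4a2 did not differ from each other beyond their spread. Col5a2 (25.5 ± 2.00 FPKM), Col15a1 (25.1 ± 3.22 FPKM) and Col1a1 (23.6 and 18.5 FPKM) also overlapped in their spread. In all, 22 members had a mean input FPKM of at least 3, and the other 33 lay below it. In bulk RNA such a level cannot tell fewer cells of a type from less RNA for each cell.

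The niche collagens, here Col5a1 to Col5a3, Col6a1 to Col6a6 and Col15a1, had a median input level of 14.2 FPKM over 10 genes. The fibroblast collagens, here Col1a1, Col1a2, Col3a1, Col12a1, Col14a1 and Col16a1, had a median of 5.06 FPKM over 6 genes. Their sums were nearer each other: 199.3 and 201.7 FPKM for the niche collagens in the 2 input libraries, and 171.4 and 174.8 FPKM for the fibroblast collagens, of which Col3a1 made most. Of 10 fibro-adipogenic markers, none was at 0 in input: Pdgfra, the defining receptor of these cells, had 4 and 2 counts, Dcn 238 and 250, and Gsn 6345 and 5766. Pax7, the defining factor of SCs, had 1072 and 1120 counts, and Acta2 and Notch3, which mural cells also use, had 1340 and 1447 and 1984 and 1906 counts. The part of other cells in these levels was not tested.

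Col6a1, Lamb2, Col20a1 and Col1a1 were higher in CPEB1 IP than in IgG, and 11 members, each of low level in input, were lower. A call here is an adjusted p under 0.05 in edgeR's quasi-likelihood fit, with the Benjamini-Hochberg method applied to all 12124 genes tested. So 4 of 45 members tested were called higher, where 14.7% of all tested genes were, and 11 of 45 were called lower, where 18.7% of all tested genes were. The remaining 30 had no call, and 10 members had too few counts to be tested. The median log2 fold change was -0.01 over the members tested and -0.01 over all genes tested. With 2 libraries for each group, p-values measure only the spread between these libraries.

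Col6a1 stood out among the niche collagens. Its level was 184.6 and 163.9 CPM in IgG, 290.0 and 335.4 CPM in CPEB1 IP, and 660.8 and 573.4 CPM in input. Both CPEB1 IP libraries thus lay above both IgG libraries and below both input libraries. Over IgG its log2 fold change was 0.79 ± 0.11 (SE) with an adjusted p of 3.34e-05 by edgeR, and it was called in all 11 alternative settings, with a range from 0.69 to 1.59. The gene lies on mm10 at chr10:76708792-76726168 on the minus strand, 85161 bases from Col6a2 in the same direction.

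Col6a2 encodes the chain that pairs with the Col6a1 product in collagen VI. It had 59.2 and 69.9 CPM in IgG, 89.6 and 87.7 CPM in CPEB1 IP and 163.0 and 146.1 CPM in input, so the order of the groups was as for Col6a1. Its log2 fold change over IgG was 0.39 ± 0.15, and the adjusted p of 0.054 by edgeR missed the threshold. The FPKM of Col6a1 was 7.71 and 7.46 times that of Col6a2 in input, 5.92 and 4.46 times in IgG, and 6.15 and 7.27 times in CPEB1 IP. The third main chain, Col6a3, was much lower, at 0.959 ± 0.16 FPKM in input, and had a log2 fold change of 0.27 ± 0.30 with no call.

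None of the 3 collagen V genes was called, although each had a higher mean in CPEB1 IP than in IgG. Col5a2 had 272.7 and 245.5 CPM in IgG, 324.2 and 319.3 CPM in CPEB1 IP and 326.2 and 337.5 CPM in input, so that CPEB1 IP did not overlap IgG (log2 fold change 0.25 ± 0.10). Col5a3 was at 110.1 and 110.7 CPM in IgG, 120.8 and 134.6 CPM in CPEB1 IP and 152.8 and 151.1 CPM in input (0.15 ± 0.13). For Col5a1 the groups overlapped, with 94.2 and 72.8 CPM in IgG, 88.7 and 95.2 CPM in CPEB1 IP, and 170.0 and 168.1 CPM in input (0.08 ± 0.15). Col15a1 was at 54.7 and 42.2 CPM in IgG and 50.4 and 57.6 CPM in CPEB1 IP, far below its 204.4 and 227.0 CPM in input (0.11 ± 0.19 over IgG). Thus 1 of the 7 niche collagens tested was called higher and none lower, where 14.7% and 18.7% of all tested genes were. Their median log2 fold change was 0.25. Col6a4, Col6a5 and Col6a6 had at most 10 counts in any immunoprecipitate library except for 13 of Col6a6 in 1 CPEB1 IP library, and were not tested.

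Among the fibroblast collagens, Col1a1 rose and Col12a1 fell. Col1a1, on chr11:94936224-94953042, had 155.7 and 129.6 CPM in IgG, 187.5 and 214.5 CPM in CPEB1 IP and 218.5 and 158.7 CPM in input. CPEB1 IP was above IgG in both libraries and within the input range, with a log2 fold change of 0.44 ± 0.12 and an adjusted p of 0.00836 by edgeR. This call was lost with IgG replicate 2 left out (adjusted p 0.0737), with CPEB1 IP replicate 2 left out (0.141) and by DESeq2 (0.0701). Its partner chain in collagen I, Col1a2, had a log2 fold change of 0.06 ± 0.12. Col3a1 had 543.8 and 520.8 CPM in IgG, 670.4 and 622.8 CPM in CPEB1 IP and 1895 and 1859 CPM in input. Its groups did not overlap, but the log2 fold change over IgG was only 0.21 ± 0.09, with an adjusted p of 0.0796 by edgeR. Col16a1 was at 0.31 ± 0.27.

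Col12a1, of the collagens that decorate fibrils, went the other way, at 49.4 and 40.1 CPM in IgG and 24.2 and 22.9 CPM in CPEB1 IP. Its log2 fold change was -0.99 ± 0.23 with an adjusted p of 0.00216 by edgeR. The call was lost where library totals were used without TMM (-0.19, adjusted p 0.489) or where no gene was filtered. Input had 19.0 and 21.7 CPM of Col12a1, so it was IgG that stood apart from the other 4 libraries. Over the 5 fibroblast collagens tested the median log2 fold change was 0.21.

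**Figure D1:**
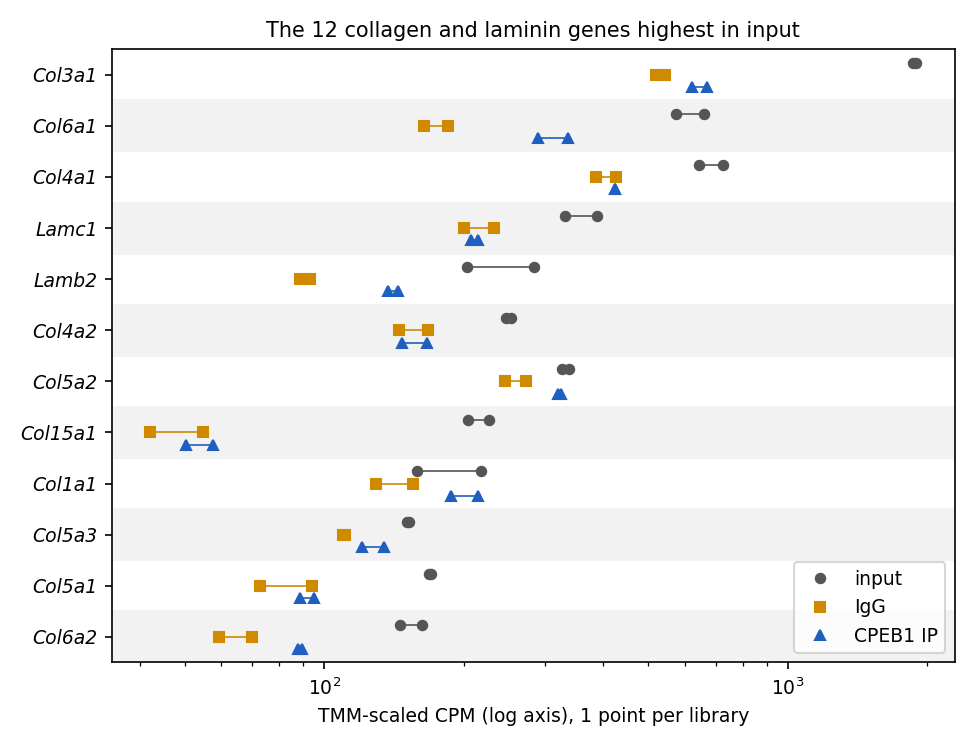
TMM-scaled CPM (log axis) of the 12 collagen and laminin genes with the highest input FPKM, with 1 point for each library and a line joining the 2 libraries of a group, ordered by input FPKM. Input (circles) lies to the right of both immunoprecipitates for most genes. CPEB1 IP (triangles) lies clear of IgG (squares) for Col6a1, from 290.0 to 335.4 against 163.9 to 184.6 CPM, and for Lamb2. By smaller fold changes it also lies above IgG without overlap for Col3a1, Col5a2, Col1a1, Col5a3 and Col6a2, of which only Col1a1 was called. With 2 libraries for each group such separation is weak evidence, and its share over all genes was not counted.

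Lamb2, 1 of the beta chains found in muscle basement membranes, was the laminin gene that rose. It had 88.9 and 93.2 CPM in IgG, 144.6 and 137.5 CPM in CPEB1 IP and 283.0 and 203.4 CPM in input, with no overlap between any of the groups. The log2 fold change over IgG was 0.56 ± 0.13 with an adjusted p of 0.0021 by edgeR, and it was called in all 11 alternatives. The gene lies at chr9:108479736-108490530 on the plus strand. Its usual partners in muscle laminins showed no such difference. Lamc1, the common gamma chain, had 200.5 and 233.1 CPM in IgG and 207.9 and 214.3 CPM in CPEB1 IP against 330.5 and 387.0 CPM in input (-0.10 ± 0.11 over IgG). Lama2, the alpha chain of the main muscle laminin, was at -0.23 ± 0.11 with no call, and the other main beta chain, Lamb1, at 0.25 ± 0.28.

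Lama1, Lama4 and Lamb3 were lower in CPEB1 IP than in IgG. Lama1, an alpha chain of embryonic basement membranes, had 2 and 4 counts in input, 21 and 13 in IgG and 5 and 13 in CPEB1 IP (log2 fold change -2.41 ± 0.48). Lamb3, an epithelial chain, had 7 and 4 counts in input, 16 and 14 in IgG and 3 and 9 in CPEB1 IP (-2.80 ± 0.49). Lama4, known from vessel walls, had 39 and 23 counts in input, 18 and 45 in IgG and 17 and 33 in CPEB1 IP (-1.81 ± 0.40). The CPEB1 IP libraries were deeper than the IgG libraries, so counts close in number are apart as shares. The call of Lama4 was lost with IgG replicate 2 left out (adjusted p 0.147). Lama3 (-0.73 ± 0.28), Lama5 (-0.31 ± 0.19) and Lamc3 (0.30 ± 0.20) had no call. All 11 laminin genes were tested, 1 was higher and 3 were lower. Of all tested genes 14.7% were higher and 18.7% lower, and of those under 3 FPKM in input 1.22% and 38.3%. IgG was itself called higher than input for Lama1 (log2 fold change 3.69), Lamb3 (2.67) and Lama4 (1.27, not called in 5 of 11 alternatives).

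The major basement membrane collagen did not differ between CPEB1 IP and IgG. Col4a1 had 426.9 and 386.0 CPM in IgG, 423.7 and 424.4 CPM in CPEB1 IP and 723.7 and 643.3 CPM in input, with a log2 fold change over IgG that rounds to 0.00 ± 0.09 and a normal 95% interval from -0.19 to 0.18. Col4a2 had 167.9 and 144.9 CPM in IgG, 147.5 and 167.0 CPM in CPEB1 IP and 246.8 and 252.5 CPM in input (-0.05 ± 0.12). These genes lie head to head on chr8 and overlap by 22 bases, and the strand setting of the counting is not given in the sources used here. Col18a1, which ends in endostatin, was at -0.13 ± 0.18.

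Of the minor collagen IV chains, of kidney and other specialised basement membranes, Col4a6, Col4a3 and Col4a4 were lower in CPEB1 IP than in IgG. Col4a6 had 13 and 4 counts in input, 15 and 8 in IgG and 2 and 3 in CPEB1 IP (log2 fold change -3.60 ± 0.58). Col4a3 had 7 and 4, 12 and 16, and 2 and 13 counts in the same order (-2.41 ± 0.51). Col4a4 had 22 and 20, 22 and 20, and 16 and 20 counts (-1.66 ± 0.42). Each rests on few reads, and each call was lost with a CPEB1 IP library left out, Col4a6 without replicate 1 (adjusted p 0.0628) or replicate 2 (0.107), Col4a3 without replicate 1 (0.107) and Col4a4 without replicate 2 (0.127). Col4a3 and Col4a4 also lie head to head, 71 bases apart. Col4a5 was not tested in CPEB1 IP against IgG. IgG was itself called higher than input for Col4a3 (log2 fold change 2.56), Col4a4 (1.25) and Col4a6 (1.68). These calls over input were lost in 1, 7 and 6 of 11 alternatives. CPEB1 IP against input had no call for Col4a4 (-0.29), and Col4a3 and Col4a6 were not tested there.

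Of the other collagens, Col20a1 rose. It had 55 and 36 counts in input, 37 and 21 in IgG and 106 and 182 in CPEB1 IP, or 28.1 and 15.3 CPM in IgG against 44.2 and 37.6 CPM in CPEB1 IP. Its log2 fold change was 0.84 ± 0.26 with an adjusted p of 0.0182 by edgeR. The call was lost without IgG replicate 2 (0.50, adjusted p 0.177), without CPEB1 IP replicate 1 (0.77, adjusted p 0.0765) and by DESeq2 (0.86, adjusted p 0.114). Exons of Col20a1 overlap those of 9230112E08Rik on the same strand, and those of Col3a1 overlap Gm47302 in the same way, so reads of these genes could be split by the counting.

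Another 4 collagens of this group fell: Col25a1, Col22a1, Col23a1 and Col7a1. Col25a1, a membrane collagen of neurons, had 1 and 1 counts in input, 20 and 16 in IgG and 3 and 9 in CPEB1 IP (log2 fold change -3.06 ± 0.49). Col22a1, of muscle-tendon junctions, had 2 and 0, 18 and 18, and 7 and 11 counts (-2.46 ± 0.46). Col23a1, a membrane collagen, had 21 and 18, 29 and 34, and 19 and 38 counts (-1.63 ± 0.35). IgG stood above input for these genes, and CPEB1 IP lay between or near input. Col7a1, of anchoring fibrils, had 39 and 25, 16 and 33, and 14 and 51 counts (-1.13 ± 0.40), and its call was lost without IgG replicate 2 (-0.50, adjusted p 0.51), without CPEB1 IP replicate 1 (-0.81, adjusted p 0.22) and by DESeq2 (-1.17, adjusted p 0.155).

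There was no call for the other 11 tested collagens of the group. Those of cartilage fibrils were Col11a1 (log2 fold change 0.66 ± 0.33), Col2a1 (0.20 ± 0.28), Col11a2 (0.20 ± 0.37), Col9a3 (0.17 ± 0.50) and Col9a1 (-0.76 ± 0.48). The rest were Col17a1 of hemidesmosomes (0.20 ± 0.39), Col26a1 (-0.01 ± 0.24), Col19a1 (-0.39 ± 0.15), Col8a1 (-0.43 ± 0.22), Col27a1 (-0.72 ± 0.29) and Col28a1 (-0.83 ± 0.46). The adjusted p of Col19a1 was 0.0528 by edgeR.

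The calls went with the level in input, a split set after values were seen. Of the 22 members tested with a mean input FPKM of at least 3, 3 were higher in CPEB1 IP than in IgG and 0 were lower, against 22.8% higher and 6.78% lower of all tested genes of that level. By edgeR at an unadjusted p under 0.05 that count of lower members was 3, namely Col19a1, Lama2 and Lama3, and by DESeq2 it was 0 after adjustment. Of the 23 members below that level, 1 was higher and 11 were lower, or 4.35% and 47.8%, against 1.22% and 38.3% of all tested genes. The filter on low counts used the IgG and CPEB1 IP libraries alone. Lamb3, Lama1, Col4a3, Col4a6, Col22a1 and Col25a1 were too low to be tested in CPEB1 IP against input, so they passed through IgG. For such genes a lower call was favoured in advance, so the counts below that level and the relation with level are partly built in. Spearman's rho between input FPKM and log2 fold change was 0.53 over 45 members and 0.63 over all genes, as a description across genes that share the same libraries.

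**Figure D2:**
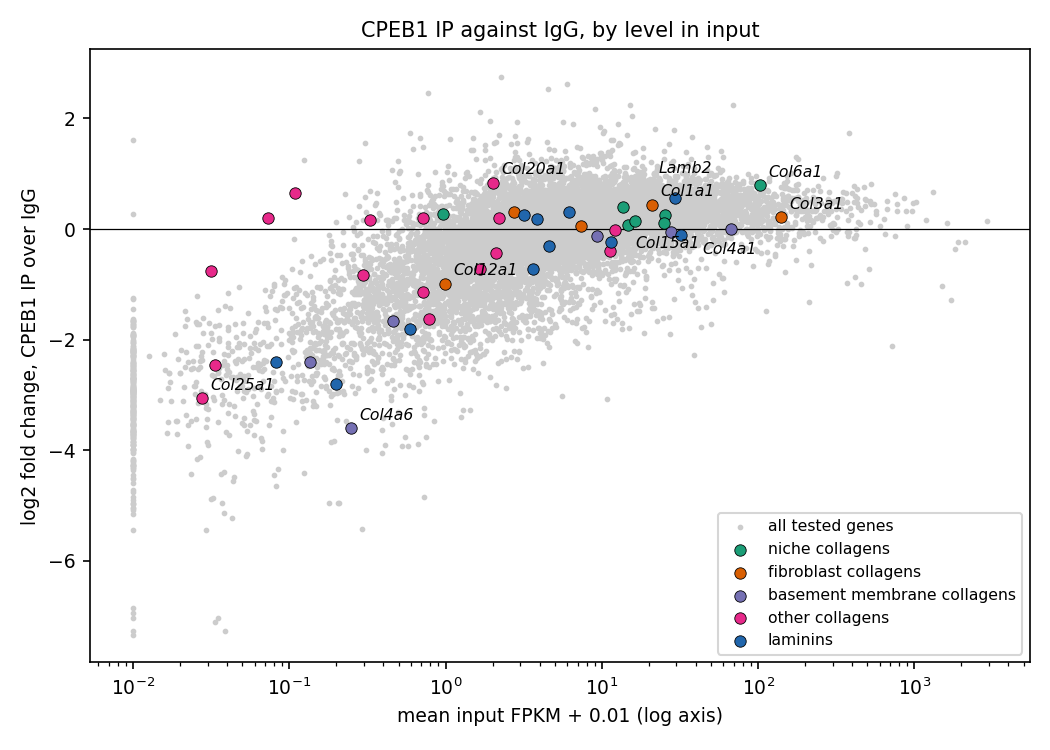
Log2 fold change over IgG in CPEB1 IP against mean input FPKM plus an offset of 0.01 (log axis), with all 12124 tested genes in grey and the 45 tested collagen and laminin genes coloured by list. The members lie within the cloud of all genes, near 0 at high input levels and down to -3.60 for Col4a6 at low levels.

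The study's own criteria for an associated transcript were a fold change above 2 in FPKM in each experiment together with a significant count test, for which the study used DESeq2. With FPKM plus 1, the ratio of CPEB1 IP to IgG was 2.45 and 3.37 for Col6a1, 2.39 and 2.33 for Lamb2, and 2.06 and 2.75 for Col20a1. These were the 3 members that met both criteria with edgeR, where 12.1% of all tested genes did. With DESeq2 as the count test, 2 members (Col6a1 and Lamb2) and 839 of all genes met them. A further 6 members passed the ratio in 1 of the 2 experiments: Col3a1 (2.02), Col1a1 (2.64), Col5a2 (2.13), Lamc3 (2.13) and Col26a1 (2.08) in the second, and Col6a2 (2.07) in the first. The ratio depends on the library total behind the FPKM: with TMM library sizes in its place, 0 members and 76 of all genes met both criteria, against 1464 of all genes with the deposited FPKM. By edgeR with those totals and no TMM, the median log2 fold change of all genes over IgG moved by 0.81, 28 members were higher and 8 were lower, and 7149 of all genes were higher and 937 lower, against 1779 and 2265 with TMM.

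CPEs were looked for in the annotated 3′ UTRs of the members, since CPEB1 binds them. At least 1 of 9 motifs was found for 38 of 55 members, or 69.1%, and for 66.8% of the 21048 genes with an annotated 3′ UTR. The motifs were TTTTAT and TTTTAAT, here called canonical, and TTTTAAAT and TTTTACT and TTTTCAT and TTTTAAAGT and TTTTAACT and TTTTAAGT and TTTTAATT, on the strand of the transcript, where TTTTAATT contains TTTTAAT. A canonical one was found for 60.0% of the members and 58.9% of all these genes. The longest 3′ UTR had a median of 1009 bases over the members and 1086 bases over all these genes. Laminin genes had short ones, with a median of 210.0 bases, and 4 of 11 held a motif. All 7 basement membrane collagens, 5 of 6 fibroblast collagens and 7 of 10 niche collagens held one.

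Of the 4 members that were higher in CPEB1 IP, Col1a1 and Col20a1 held a canonical CPE, whereas the 3′ UTRs of Col6a1 (767 bases) and Lamb2 (110 bases) held none of the 9 motifs. The stretches around the canonical CPEs of Col1a1 and Col20a1 are shown with the motif in capitals, as the sites within the members that rose. Beside them are sites of Col3a1, Col15a1 and Col4a1, abundant members that held one and were not called. All are read 5′ to 3′ from GENCODE M21 transcript sequences, with positions on mm10.
Col1a1 site 1, chr11:94952587-94952616: gttcaaagtattTTTTATtctttttttttt
Col1a1 site 2, chr11:94952609-94952638: tttttttttttTTTTAATggatagggactt
Col1a1 site 3, chr11:94952985-94953014: atttgagatgtTTTTAATtattttgattgc
Col20a1, chr2:181018267-181018296: catgaacagcatTTTTATgcaggcttaggg
Col3a1 site 4, chr1:45349537-45349566: gatcttctcttcTTTTATtctataaaaata
Col15a1, chr4:47312376-47312405: tacaagtttggtTTTTATatatattacaca
Col4a1, chr8:11198495-11198524: taaaaatgaagcTTTTATggatttgttgct

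The last site of Col1a1 began 47 bases before the end of the 3′ UTR, that of Col20a1 85 bases, that of Col4a1 82 bases and site 4 of Col3a1 158 bases. In Col15a1 the site lay 780 bases from the end. The members with many canonical sites in their longest 3′ UTR were Col25a1 with 14, Col4a4 with 12, and Col22a1 and Lamc1 with 7 each. The first 3 were lower in CPEB1 IP than in IgG, and Lamc1 had no call. These 3′ UTRs were long, with 4185 bases for Col25a1, 4708 for Col4a4, 3538 for Col22a1 and 2551 for Lamc1. The median over the members was 1009 bases. The first 3 genes also had few counts, and IgG was itself called higher than input for each. A link of site number with the fold change was not tested. Over the 31 tested members with any of the 9 motifs the median log2 fold change over IgG was -0.10, and over the 14 without one it was 0.19. Over all tested genes these medians were -0.01 with a motif and 0.15 without.

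Against input, most of the abundant members were depleted from CPEB1 IP. Of 41 members tested, 15 were lower in CPEB1 IP than in input, where 15.8% of all 12171 tested genes were lower, and 9 were higher, where 17.0% were. The median log2 fold change was -0.31 over the members and 0.00 over all genes. At an input FPKM of at least 3, 14 of 22 members were lower and 1 was higher, or 63.6% and 4.55%, against 19.9% and 20.2% of all tested genes of that level. The comparisons with input share libraries with each other and with that of CPEB1 IP and IgG, so their values stand side by side and are not independent.

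In CPEB1 IP over input, Col15a1 and Col3a1 had the lowest log2 fold changes among members with an input FPKM of at least 3. Col15a1 had a log2 fold change of -1.93 ± 0.15 in CPEB1 IP and -2.16 ± 0.19 in IgG, both over input. For Col3a1 these were -1.49 ± 0.13 and -1.82 ± 0.13. Col6a1 fell by 0.93 on the log2 scale in CPEB1 IP and by 1.83 in IgG. These changes were called in all 11 alternatives.

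Other niche collagens that were lower in CPEB1 IP than in input were Col5a1 (log2 fold change -0.82 ± 0.14), Col6a2 (-0.75 ± 0.14) and Col6a6 (-1.51 ± 0.44). Col5a2 (0.01 ± 0.12), Col5a3 (-0.20 ± 0.14) and Col6a3 (0.51 ± 0.27) had no call, so 5 of 8 niche collagens tested were lower and none was higher. Of all tested genes 15.8% were lower and 17.0% higher. Of the 5 fibroblast collagens tested, Col3a1 was lower, Col1a2 was higher (0.44 ± 0.14, not called in 6 of 11 alternatives), and Col1a1 (0.14 ± 0.17), Col12a1 (0.26 ± 0.23) and Col16a1 (0.19 ± 0.23) had no call. The median log2 fold change was -0.79 for the niche collagens and 0.19 for the fibroblast collagens. Within a library, however, the summed FPKM of the niche collagens was 1.16 and 1.15 times that of the fibroblast collagens in input, 1.20 and 1.14 times in IgG and 1.28 and 1.42 times in CPEB1 IP. The sum and the median thus differ in direction. Between the leading genes of the 2 lists, Col6a1 was 0.781 and 0.691 times Col3a1 in input, 0.761 and 0.705 times in IgG and 0.969 and 1.21 times in CPEB1 IP.

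Col4a1, Col4a2, Col18a1 and Lamc1 were lower than input in both immunoprecipitates. Col4a1, Col4a2 and Col18a1 had log2 fold changes of -0.64 ± 0.13, -0.61 ± 0.13 and -0.78 ± 0.16 in CPEB1 IP over input. In IgG over input they had -0.75 ± 0.14, -0.68 ± 0.16 and -0.77 ± 0.21. Lamc1 was at -0.71 ± 0.13 and -0.73 ± 0.15. Lamb2 was at -0.74 ± 0.17 in CPEB1 IP and -1.42 ± 0.18 in IgG. Lamb1 (-0.74 ± 0.20), Lama3 (-1.20 ± 0.26) and Lama2 (-0.45 ± 0.13) were also lower in CPEB1 IP than in input, which made 5 of 9 laminin genes tested, where 15.8% of all tested genes were lower. Col26a1 had -1.39 ± 0.17.

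Several of these calls against input were lost with 1 library left out. Such a fit has 1 library in a group and less power, so a lost call does not show that the result rested on that library. In CPEB1 IP over input the log2 fold change then ranged from -0.54 to -0.40 for Lama2 and -0.82 to -0.68 for Lamb1. The range was wider for Col9a3, from 1.46 to 3.53, and for Col28a1, from 1.15 to 2.26. In CPEB1 IP against input, without CPEB1 IP replicate 1 the call was lost for Col4a1 (adjusted p 0.0584), Col4a2 (0.15), Col6a6 (0.082), Lama2 (0.284), Lamb1 (0.0612), Col1a2 (0.185), Col8a1 (0.0566), Col9a3 (0.0655), Col11a2 (0.0997) and Col28a1 (0.055), all by edgeR. Without CPEB1 IP replicate 2 it was lost for Lama3 (0.0599), Lama2 (0.143), Lamb1 (0.147), Col6a6 (0.146), Col1a2 (0.323), Col8a1 (0.0601), Col11a2 (0.108) and Col28a1 (0.482). Without an input library it was lost for Col6a6 (0.0815), Col11a2 (0.0966) and Col28a1 (0.141). The remaining 13 of the 24 calls held with any library left out, among them Col3a1, Col6a1, Col15a1, Lamb2, Lamc1 and Col2a1. In IgG against input, Lamc1 lost its call without IgG replicate 1 (adjusted p 0.0587), and Col4a2 (0.0927) and Col18a1 (0.0863) without IgG replicate 2.

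Satellite cell markers did not move as 1 set: of 11, 4 were lower in CPEB1 IP than in input, 1 was higher and 6 had no call. Their median log2 fold change was -0.23. Of all tested genes, 15.8% were lower and 17.0% higher. The lower ones were Cdh15 (log2 fold change -2.22), Pax7 (-1.84), Calcr (-1.57) and Chodl (-0.84), and Myod1 (1.31) was higher. Of 7 smooth muscle and pericyte markers 5 were lower, among them Notch3 (-1.25) and Acta2 (-1.07). Summed over their lists, the satellite cell markers had 13524.9 and 14851.5 CPM in input, 11399.1 and 11527.1 CPM in IgG and 14997.3 and 12686.2 CPM in CPEB1 IP. The smooth muscle and pericyte markers had 1407.8 and 1543.8 CPM in input, 529.4 and 511.3 CPM in IgG and 683.7 and 694.6 CPM in CPEB1 IP. The part of either in the collagen values was not tested.

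**Figure D3:**
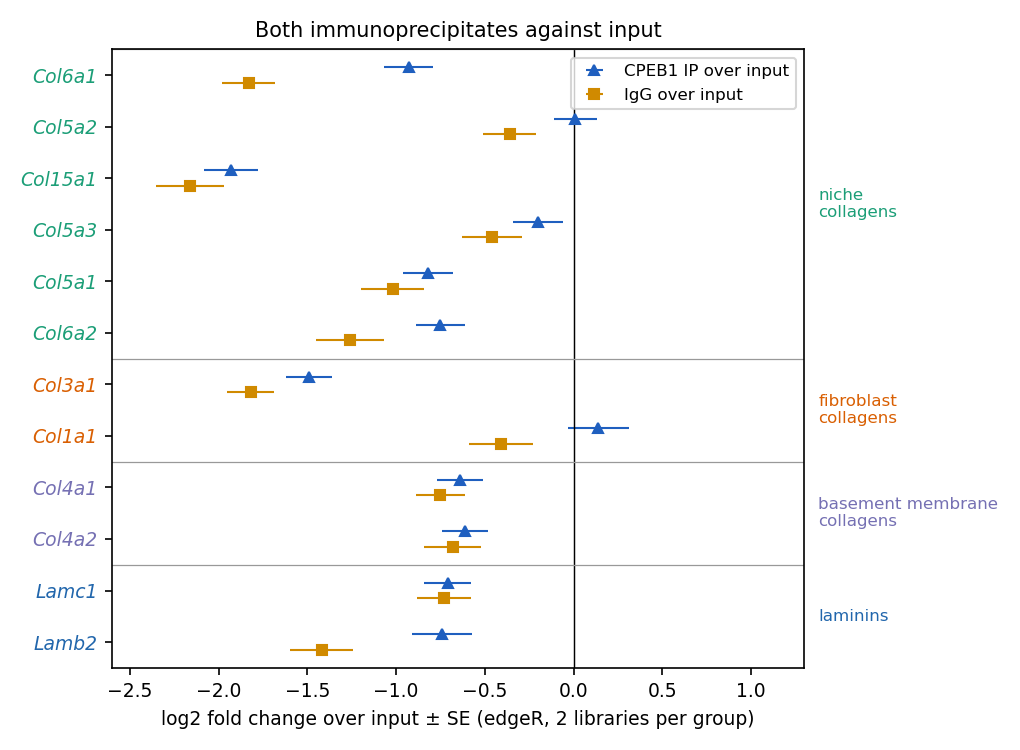
Log2 fold change over input ± SE of CPEB1 IP (triangles) and IgG (squares) for the 12 collagen and laminin genes with the highest input FPKM, grouped by list. Col15a1 and Col3a1 lie farthest to the left in CPEB1 IP, and Col6a1 (-0.93 against -1.83) and Lamb2 (-0.74 against -1.42) show the widest gaps between CPEB1 IP and IgG.

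IgG against input gave 14 lower members of 46 tested, where 19.4% of all 12980 tested genes were lower, and 15 higher, where 21.4% were. At an input FPKM of at least 3, 14 of 22 members were lower and 0 were higher by edgeR, against 30.6% lower and 10.9% higher of all tested genes of that level. All 15 higher members lay below that level, led by Col9a1 (log2 fold change 5.22 ± 0.84), Col25a1 (5.20 ± 0.73) and Col22a1 (5.20 ± 0.76). Of 24 members there, 15 were higher (62.5%) and 0 lower by edgeR, against 36.4% and 3.19% of all tested genes. Both counts of 0 were also 0 at an unadjusted p under 0.05 and by DESeq2, whereas DESeq2 did not call Col4a4, Col4a6 and Lama4 higher. These repeats used the same filter on low counts and the same input libraries, so they add no separate support. Members with almost no input counts, such as Col25a1, Col22a1, Col9a1 and Lama1, passed the filter through IgG. For them a lower call was out of reach. Spearman's rho between input FPKM and log2 fold change was -0.87 over 46 members and -0.54 over all tested genes, again as a description. Input is here both the level that orders or splits the genes and the denominator of the fold change, so a negative relation is partly built in, for the split at 3 FPKM as well. In CPEB1 IP against input it was -0.64 over 41 members and 0.00 over all tested genes.

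The collagens of cartilage were near 0 in input and present in both immunoprecipitates. Col2a1, the main collagen of cartilage, had 2 and 3 counts in input, 29 and 24 in IgG and 61 and 109 in CPEB1 IP. Col11a1, its partner in fibrils, had 5 and 6, 16 and 19, and 44 and 116 counts in the same order. Col9a1, which coats those fibrils, had 1 and 0, 9 and 12, and 8 and 28 counts. Col10a1, of growth plate cartilage, had 0 and 0, 0 and 3, and 6 and 13 counts. Both CPEB1 IP libraries were above both input libraries for each of these genes, and for Col9a3 and Col11a2.

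From the summed counts of the 2 libraries in each group, Col2a1 took a share of counts 29.8 times that in input for CPEB1 IP (exact 95% counting interval 12.5 to 93.0) and 26.4 times for IgG (10.6 to 84.6). For Col11a1 the ratio was 12.8 (6.94 to 26.1) and 7.92 (3.93 to 17.3). Col9a1, with 1 count in input, had ratios of 31.6 (5.32 to 1282) and 52.3 (8.41 to 2163). Col10a1 had 0 counts in input, and its ratio in CPEB1 IP was 5.56 against a floor of 3 counts over the input group, with an exact 95% lower limit of 4.09. These intervals cover counting error only, as amplified reads are not independent molecules. By edgeR, Col2a1 (log2 fold change 4.92 ± 0.44), Col9a1 (4.70 ± 0.89), Col11a1 (3.67 ± 0.40), Col9a3 (2.16 ± 0.57) and Col11a2 (1.11 ± 0.35) were higher in CPEB1 IP than in input, and none was called between CPEB1 IP and IgG. With so few counts in input, Col2a1, Col9a1, Col11a1 and Col9a3 passed the filter on low counts through CPEB1 IP, which favours a higher call. Col20a1 (1.57 ± 0.25), Col28a1 (1.68 ± 0.54) and Col8a1 (0.84 ± 0.22) completed the 9 higher members together with Col1a2.

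Markers of cartilage and bone, a list made after the values of these collagens were seen, were present in the same libraries. Acan, the main cartilage proteoglycan, had 0 and 0 counts in input, 3 and 6 in IgG and 27 and 51 in CPEB1 IP. Comp had 25 and 13, 30 and 23, and 60 and 91 counts, and Ibsp of bone had 4 and 1, 9 and 4, and 30 and 56. Of 14 such genes 8 were tested in CPEB1 IP against input and 7 were higher, where 17.0% of all tested genes were. Sox9 was the exception, at 1832 and 1496 counts in input and with a log2 fold change of -0.29. Acan, Ibsp and Matn3 were too low to be tested in IgG against input, so they passed the filter on low counts through CPEB1 IP. For such genes a higher call was favoured in advance, and the share called is not support. Tenocyte markers (3 of 3 tested), Schwann markers (4 of 4), endothelial markers (6 of 8) and fibro-adipogenic markers (5 of 9, with 3 lower) were also higher in CPEB1 IP than in input. IgG showed the same against input, where 21.4% of all tested genes were higher. There it was 3 of 3 tenocyte, 3 of 5 Schwann, 5 of 8 endothelial and 6 of 10 fibro-adipogenic markers (with 3 lower). Of the cartilage and bone markers 5 of 6 were higher in IgG, and Sox9 was lower. Here Cnmd, Pdgfra and S100b, not tested in CPEB1 IP against input, passed the filter through IgG in the same way. Summed, the tenocyte markers had 55.2 and 59.2 CPM in input, 177.0 and 178.4 CPM in IgG and 265.4 and 289.4 CPM in CPEB1 IP. The part of other cell types in these collagen values was not tested.

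**Figure D4:**
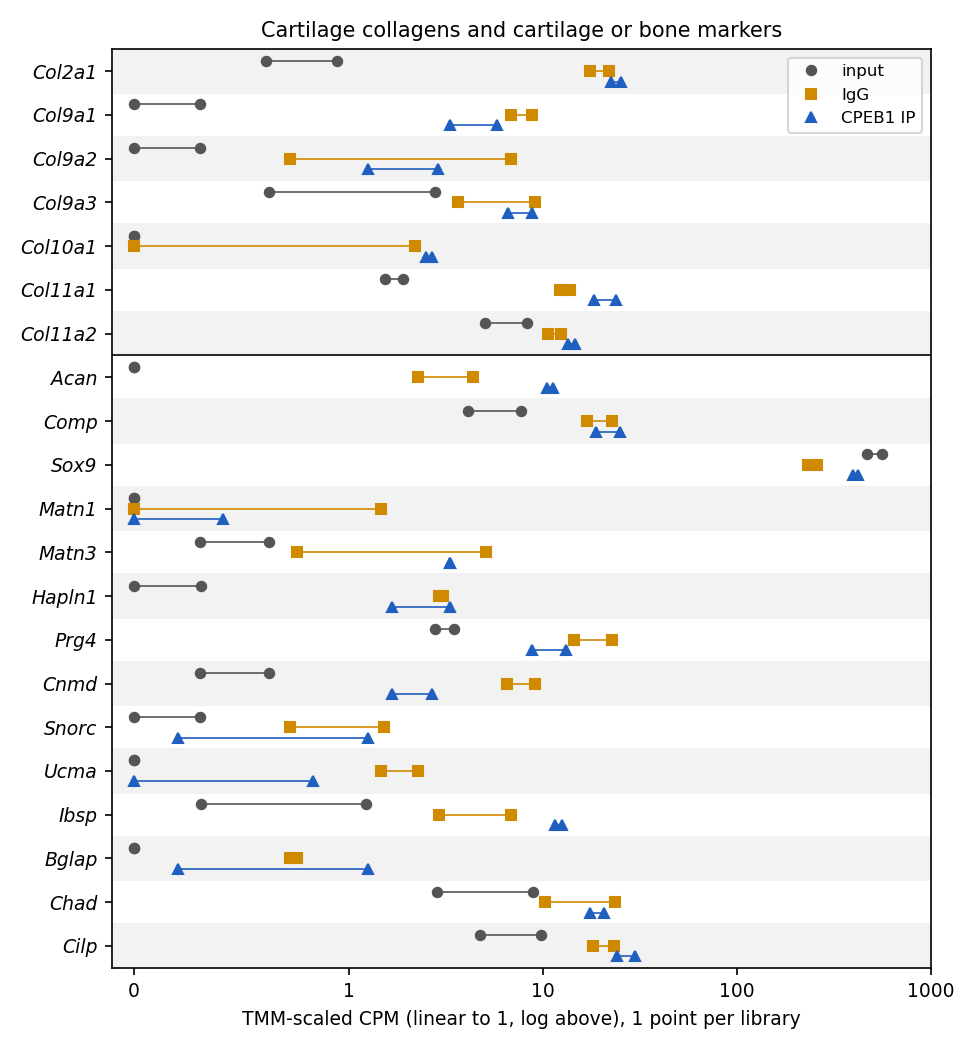
TMM-scaled CPM (linear to 1, log above) of 7 cartilage collagens (above the line) and 14 cartilage or bone markers (below it), with 1 point for each library. Col2a1, Col11a1 and Acan lie at under 2 CPM in input (circles) and higher in IgG (squares) and CPEB1 IP (triangles), while Sox9 is abundant in every group.

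Genes that process, bind or sense collagen and laminin were taken as 4 lists of 66 genes in all. Of these, 60 were tested in CPEB1 IP against IgG, and 18 were higher and 4 lower, with a median log2 fold change of 0.22. Of all tested genes, 14.7% were higher and 18.7% lower. Among all tested genes at an input FPKM of at least 3 these shares were 22.8% and 6.78%, and below it 1.22% and 38.3%. The 66 genes were not split by level. Collagen synthesis and crosslinking had 7 higher and 1 lower of 26, basement membrane partners 3 higher of 8, receptors 4 higher and 3 lower of 17, and matrix proteases and inhibitors 4 higher of 9. Pcolce, which enhances cleavage of procollagen, had a log2 fold change of 1.01 ± 0.27, and Serpinh1, the collagen chaperone, had 0.81 ± 0.09. Dag1, the laminin receptor dystroglycan, had 0.96 ± 0.09, Hspg2, the basement membrane proteoglycan perlecan, had 0.96 ± 0.10, and the protease Mmp2 had 0.73 ± 0.10. The collagen receptors Itga11 (-1.79 ± 0.45) and Itga1 (-0.77 ± 0.21) and the collagen IV receptor Adgrg6 (-1.33 ± 0.51) were lower. IgG was itself called higher than input for Itga11 (1.72) and Itga1 (0.82). In CPEB1 IP over input these were at 0.05 and 0.17 with no call. Adgrg6 had at most 14 counts in any library and an adjusted p of 0.0489 by edgeR over IgG. Calcr, the receptor for collagen V, was higher in CPEB1 IP than in IgG (0.36 ± 0.12, adjusted p 0.0234 by edgeR). In CPEB1 IP against input, 9 of 59 tested were higher and 18 lower, beside 17.0% and 15.8% of all tested genes. Of all tested genes at an input FPKM of at least 3 the shares were 20.2% and 19.9%. In IgG against input, 10 of 61 were higher and 30 lower, beside 21.4% and 19.4% of all tested genes, or 10.9% and 30.6% of those at that level.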

How the data were processed

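The authors aligned reads to mm10 using HISAT, and featureCounts gave the raw counts for each gene that they deposited. The authors also deposited FPKM, computed from the count, the exon length and a library total larger than the counts on genes. The annotation release and the strand setting are not given in the sources used here. Groups and replicate numbers came from the labels, and all sample columns were used. Members, gene lists and tests were chosen with earlier results of these data known.

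Counts were compared for 2 groups at a time with edgeR 4.0.16 in R 4.3.3 (filterByExpr, TMM, quasi-likelihood test, Benjamini-Hochberg adjustment over all tested genes at 0.05). SE is the log2 fold change divided by the square root of F. CPM used TMM over all 6 libraries. DESeq2 1.42.0 was an alternative. Tables, sequences and plots used Python 3.11.15 with matplotlib 3.10.9, scipy 1.17.1, pandas 2.3.3 and numpy 2.4.6. The tests were checked on simulated data. A 3′ UTR was the exonic sequence after a stop codon in GENCODE M21 on GRCm38. Each member tested in CPEB1 IP against IgG was named, except 1 that is not reported here, with library values for the 12 highest in input FPKM and for members called or meeting the FPKM ratio, and the 8 other pathway genes called with the largest change, with the rest added after values were seen. Ratios used FPKM plus 1. Alternatives were other scalings, no filter, a fit of all 6 libraries, the replicate block, other pseudocounts, 2 canonical motifs, and each library left out.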

Additional observations from a re-analysis of the deposited data

How the results depend on the processing

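Precision rests on 2 libraries for each group and on few reads for most members, so counts under about 20 limit the minor collagens. In CPEB1 IP against IgG the scaling mattered most: with the library total behind the FPKM and no TMM, 7149 genes were higher and 937 lower (88.4% of calls higher against 44.0%), 28 members were higher, and the median over all genes moved by 0.81. Under it Col19a1 (0.42), Lamc1 (0.71), Lama5 (0.50), Col26a1 (0.79), Col4a1 (0.80), Col4a2 (0.76), Lama2 (0.58) and Col18a1 (0.68) turned to higher, each near or below that shift, and in IgG against input 26 members and 7180 genes were lower, 1108 higher, with Col27a1 (-0.76) and Col1a2 (-0.61) turning to lower. In CPEB1 IP against input it left 1235 genes higher. With no filter on low counts 12 members and 3513 genes were higher in CPEB1 IP than in IgG, and Col4a1 turned to 0.39. DESeq2 called 855 genes higher and 967 lower and 2 members higher in CPEB1 IP against IgG, 5 members higher in CPEB1 IP against input, and 1695 genes higher and 1596 lower in IgG against input. A pseudocount of 5 left 1 member meeting both criteria, and FPKM with TMM library sizes left 0.

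Leaving out each library in turn gave, for CPEB1 IP against IgG, 1054 to 1783 genes higher and 677 to 1750 lower, 3 to 6 members higher and 9 to 12 lower. For CPEB1 IP against input it gave 957 to 2646 genes higher and 1064 to 2347 lower, and 4 to 10 members higher, with 4 without either CPEB1 IP library, and 10 to 18 lower. For IgG against input it gave 1354 to 2170 genes higher, 1709 to 2400 lower, 11 to 14 members higher and 10 to 18 lower. Col26a1, near 0 in CPEB1 IP over IgG, ranged from -0.43 without IgG replicate 2 to 0.72 without IgG replicate 1. A lone library was assumed to vary like the other group. The cause of these moves was not tested.

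With pseudocounts of 0.1 and 5, the input median of log2 FPKM was -0.68 and 2.47 for basement membrane collagens, 2.20 and 3.29 for fibroblast collagens, 1.89 and 3.11 for alpha, 1.70 and 3.03 for beta and 2.65 and 3.48 for gamma laminins, 3.83 and 4.26 for niche collagens and -1.77 and 2.38 for other collagens, as the construction of the scale implies.

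Libraries of the same replicate number showed no shared deviation: deviations from group means correlated at -0.0108, -0.0245 and 0.0325 across 14276 genes in the 3 comparisons. With 2 libraries for each group this cannot tell whether the libraries were paired, and the study set each CPEB1 IP against the IgG of its own experiment. With the replicate block, 1739 genes were higher and 2231 lower in CPEB1 IP against IgG, with 4 members higher and 13 lower, the added ones being Col19a1 and Lama3. In CPEB1 IP against input the block changed no member's call, and in IgG against input it added Col5a2, Col1a1 and Lama3 as lower, for 17. The share with a CPE was 60.0% with 2 motifs.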
